A study of Mus musculus with 14 samples.

Results

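The proteasome genes and NFE2L1, the transcription factor that adjusts their expression, were followed in mouse brown adipose tissue (BAT) as the animals went from warmth to acute cold, with and without CLSTN3B in adipocytes. The members were the protein-coding genes whose symbol begins with Psma, Psmb, Psmc, Psmd, Psme or Psmg and a digit, together with Nfe2l1, Ddi2, Ngly1 and Pomp. There were 53 such genes among the 55471 of the count table, and 51 of them had enough counts to be tested. Psma8, an α subunit known from testis, and Psmb11, the β subunit of the thymic proteasome, collected 16 and 15 counts over all 14 libraries and were left untested.

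The proteasome is the protease that degrades ubiquitin-tagged proteins. Its 20S core is a barrel of α rings around β rings, in which the β subunits Psmb5, Psmb6 and Psmb7 carry the active sites. The 19S cap holds an ATPase base that unfolds substrates and a lid that removes ubiquitin. NFE2L1 (also called TCF11 or NRF1) is made at the endoplasmic reticulum and drawn out of its membrane. NGLY1 then removes its sugar chains and the protease DDI2 cleaves it, which frees a factor that raises transcription of proteasome genes when proteasome activity falls short. In brown fat NFE2L1 is known as a factor needed to keep up proteasome activity during adaptation to cold. Cells exposed to interferon replace the catalytic subunits by Psmb8, Psmb9 and Psmb10 and form the immunoproteasome.

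Libraries were made from total RNA of BAT of 10-week-old males with a NEBNext Ultra II kit, and gene counts were deposited. AdC3KO mice lacked CLSTN3B in adipocytes; the promoter that drove the deletion is not given in the sources used here. All mice, AdC3KO and WT, had first spent 2 weeks at 30 °C, a temperature at which a mouse needs hardly any BAT thermogenesis. They were then sampled after 6 h at 4 °C (4 AdC3KO and 4 WT libraries) or at 30 °C (3 AdC3KO and 3 WT libraries). The labels do not say that each library came from its own mouse, so p-values measure the spread between libraries.

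Gene counts per library, in units of 1e6, ran between 19.9 and 29.03. The Clstn3 locus, which includes Clstn3b, ranged over 53.9 to 77.9 CPM (counts per 1e6 counts, TMM-scaled as explained below) in AdC3KO mice against 970 to 1195 CPM in WT mice at 4 °C, and over 14.8 to 17.3 CPM in AdC3KO mice against 182 to 228 CPM in WT mice at 30 °C. Ucp1, the uncoupling protein that defines brown adipocytes, was present in every library, at 11020 to 15740 CPM at 4 °C and 1382 to 2045 CPM at 30 °C. WT library 4 and AdC3KO library 1 at 4 °C stood apart by high interferon response genes, and results that rest on them are given with and without them. Skeletal muscle transcripts were highest in AdC3KO library 3 at 4 °C (468 CPM summed over 11 markers), WT library 3 at 30 °C (250 CPM) and AdC3KO library 1 at 30 °C (132 CPM), against 43.4 to 95.3 CPM in the rest. One alternative left out these and WT library 2 at 4 °C and AdC3KO library 2 at 30 °C, a set of 5 known from an earlier analysis of these data. In bulk tissue, fewer cells of a type and less RNA per cell cannot be told apart.

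Most of the proteasome was higher after 6 h of cold in both genotypes. In AdC3KO, 38 of the 51 tested members rose and 3 fell, where 31% of all 15949 tested genes rose and 32.1% fell. In WT, 37 members rose and 2 fell, where 30.6% of all genes rose and 30.8% fell. A gene was called at a Benjamini-Hochberg adjusted p below 0.05 over all tested genes in edgeR's quasi-likelihood test. The members' median log2 fold change was 0.68 in AdC3KO and 0.57 in WT, against −0.06 and −0.03 over all tested genes. All 37 members that rose in WT also rose in AdC3KO, and Psmg1 and Psmd5 fell in both; Psma7 and Psmg2 were called in AdC3KO alone, a difference between genotypes that did not pass its own test. The increase reached 2-fold or more in 12 called members in AdC3KO and in 10 in WT. The share of all tested genes that reached 2-fold was not counted, so these counts cannot be set against a background. Every AdC3KO library at 4 °C was above every AdC3KO library at 30 °C for 38 of the 51 members, and below for 7. In WT the cold libraries were all above the warm ones for 34 and all below for 2. How many of all tested genes were separated in this way was not counted.

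Some markers of other cell types were also higher in the cold. Of 4 endothelial markers, 3 rose and 1 fell in each genotype, with medians of 1.09 in AdC3KO and 0.71 in WT; their sum was 982 to 1178 CPM in AdC3KO mice and 936 to 989 CPM in WT mice at 4 °C, against 491 to 559 CPM in AdC3KO mice and 484 to 652 CPM in WT mice at 30 °C. Of 5 red blood cell markers, 5 rose in AdC3KO and 4 in WT, with medians of 0.98 and 0.72; their sum was 496 to 622 CPM in AdC3KO mice and 326 to 599 CPM in WT mice at 4 °C, against 245 to 385 CPM in AdC3KO mice and 276 to 358 CPM in WT mice at 30 °C. On library totals alone, described next, 3 endothelial and 4 red blood cell markers rose in AdC3KO and 2 and 1 in WT. Of 11 macrophage and leukocyte markers, 2 rose and 1 fell in AdC3KO and 4 rose and 1 fell in WT. Their part in the members' change was not tested.

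How far the members rose depended on the scaling. The normalisation factors (trimmed mean of M-values, TMM) separated the temperatures completely. They lay between 0.822 and 0.954 at 4 °C and between 1.11 and 1.21 at 30 °C. When counts were scaled by library totals alone, the median of all genes moved to −0.45 in AdC3KO and −0.38 in WT. On that scale 27 members rose and 10 fell in AdC3KO, and 24 rose and 7 fell in WT. Of all tested genes, 18.7% rose and 46.4% fell in AdC3KO, and 19.4% rose and 44% fell in WT. The distance of the members' median above that of all genes was 0.74 in AdC3KO and 0.60 in WT on both scales. A change of scaling shifts all genes by nearly the same amount, so this match was fixed in advance and is no further test of the rise. The changes below are therefore changes relative to the bulk of the transcriptome.

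**Figure D1:**
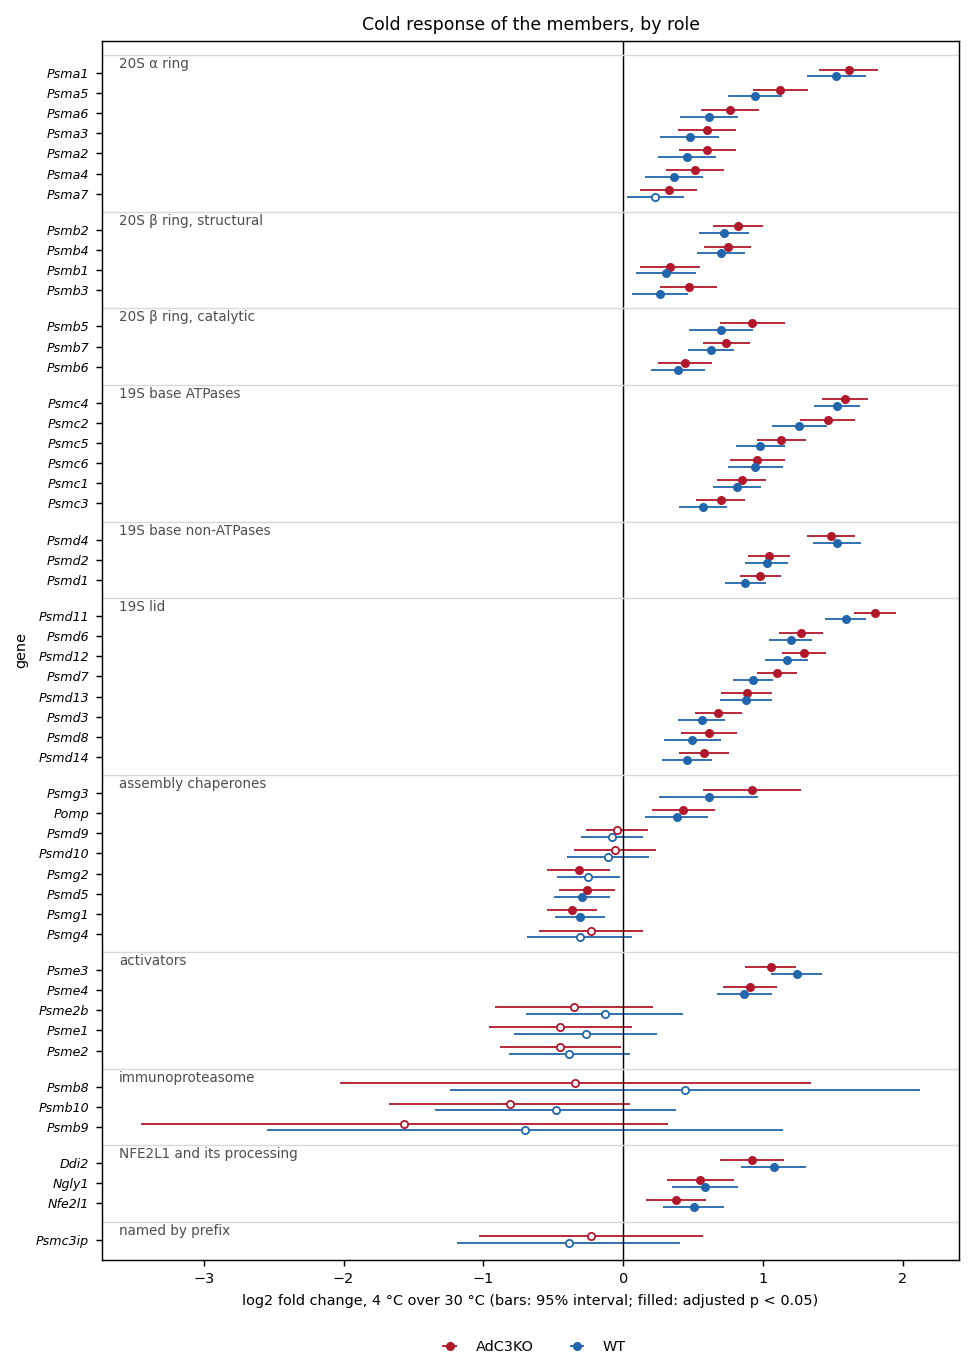
Log2 fold change of each tested member at 4 °C over 30 °C (horizontal axis) in AdC3KO (red) and WT (blue), grouped by role, with 95% intervals; filled points have an adjusted p below 0.05. All 17 tested 19S subunits lie to the right of 0 in both genotypes, with medians of 1.04 in AdC3KO and 0.94 in WT, while the intervals of Psmb8, Psmb9 and Psmb10 are wide and cross 0.

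Nfe2l1 itself was abundant. It lies on the minus strand of chromosome 11, from 96817414 to 96829968 (GRCm38), and had the second highest level per transcript length among the members. In AdC3KO it had 600.1, 543, 502 and 639 CPM at 4 °C, against 484, 392 and 443 CPM at 30 °C. In WT it had 685, 595, 662 and 548 CPM at 4 °C, against 455, 443 and 420 CPM at 30 °C. The temperature groups did not overlap in either genotype. Nfe2l1 rose by a log2 fold change of 0.38 (SE 0.11, adjusted p = 0.0066) in AdC3KO and 0.50 (SE 0.11, adjusted p = 0.000853) in WT. On library totals alone it was −0.005 (adjusted p = 0.973) in AdC3KO and 0.14 (adjusted p = 0.265) in WT, so the direction in AdC3KO rests on the scaling. With upper-quartile factors it was 0.15 (adjusted p = 0.253) in AdC3KO and 0.26 (adjusted p = 0.0473) in WT. Relative to the median of all genes, Nfe2l1 was 0.43 and 0.53 higher in AdC3KO and WT under TMM, and 0.44 and 0.52 higher on library totals. These values match because scaling shifts all genes nearly alike, so they do not test the rise again.

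Ddi2, the protease that cleaves NFE2L1, had a larger log2 fold change than Nfe2l1 in both genotypes; the difference between the genes was not tested. It had 105, 93.9, 90.7 and 127 CPM at 4 °C and 61.0, 55.5 and 48.5 CPM at 30 °C in AdC3KO, a log2 fold change of 0.92 (SE 0.12, adjusted p = 4.43e-06). In WT it had 108, 122, 119 and 106 CPM at 4 °C and 54.2, 49.2 and 58.4 CPM at 30 °C, a log2 fold change of 1.08 (SE 0.12, adjusted p = 9.01e-07). Every cold library was above every warm one, and the rise of Ddi2 passed the test under every alternative run. Ddi2 overlaps Rsc1a1 on the same strand over 1749 bases, and no count was assigned to Rsc1a1.

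Ngly1, the glycanase that deglycosylates NFE2L1, had 76.6, 82.4, 85.0 and 64.6 CPM at 4 °C and 50.4, 53.1 and 54.4 CPM at 30 °C in AdC3KO. It had 93.0, 68.3, 81.1 and 64.7 CPM at 4 °C and 53.6, 52.2 and 47.5 CPM at 30 °C in WT. The groups did not overlap, and the log2 fold changes were 0.55 (SE 0.12, adjusted p = 0.000836) in AdC3KO and 0.59 (SE 0.12, adjusted p = 0.000533) in WT. Without the 5 libraries with muscle transcripts, which leaves a lone AdC3KO library at 30 °C, Ngly1 (0.45, adjusted p = 0.0999) and Nfe2l1 (0.42, adjusted p = 0.0674) were no longer called in AdC3KO. On library totals Ngly1 was called in neither genotype (0.16, adjusted p = 0.185 in AdC3KO and 0.22, adjusted p = 0.0688 in WT).

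**Figure D2:**
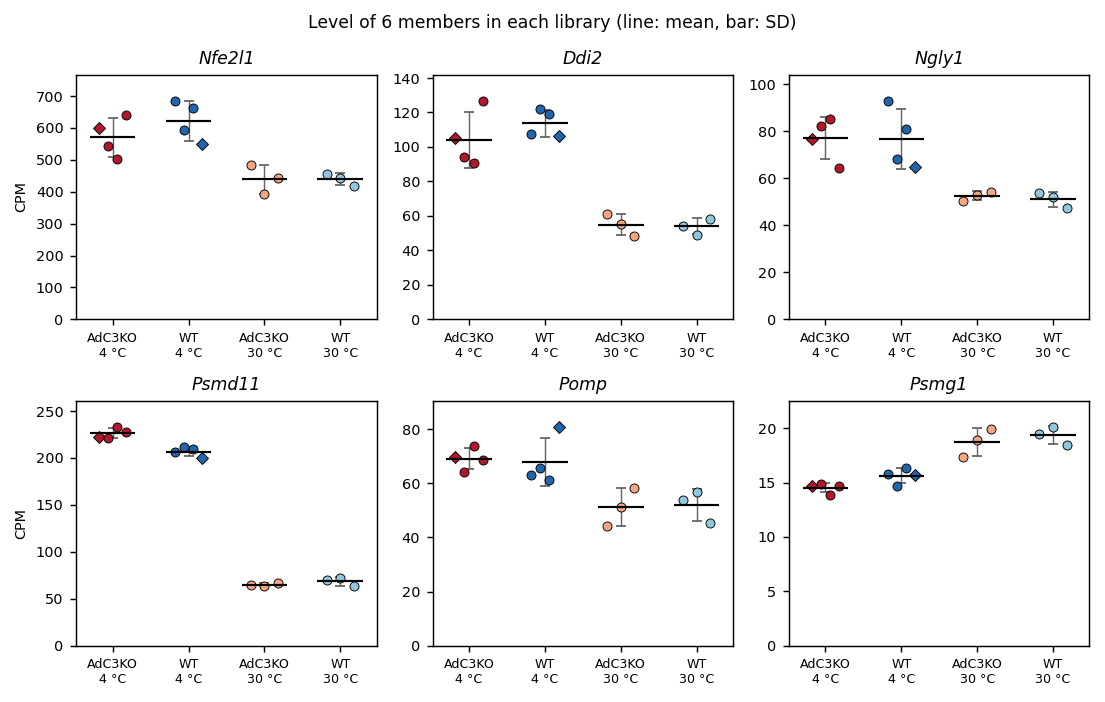
Level of 6 members (CPM, vertical axes from 0) in each library of the 4 groups; points are libraries, with AdC3KO library 1 and WT library 4 at 4 °C as diamonds, black lines are means and bars SD. Nfe2l1, Ddi2, Ngly1 and Psmd11 lie higher at 4 °C than at 30 °C in both genotypes, with Psmd11 at 200.2 to 233 CPM against 63.2 to 72.5 CPM, and Psmg1 lies lower.

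NFE2L1 binds, with a small MAF protein, the antioxidant response element, whose core is TGACNNNGC or TGAGNNNGC. RefSeq promoter windows of GRCm38.p6, from 250 bases before to 50 after each start, were at hand for 45 of the 53 members; Psma8, Psmb1, Psmb2, Psmb7, Psmc3, Psmd3, Psmd7 and Psmg2 had none. Both strands were searched. TGACNNNGC occurred in 4 of the 25 core subunit genes with a window (16.0%), against 14% of all 27025 genes with one. TGAGNNNGC occurred in 10 of the 25 (40.0%), against 19.8% of all genes, and at least 1 form in 12 (48.0%), against 30.8%. The median G and C content of the windows was 56.7% in the 25 genes and 52.8% over all genes. The half-site of the cyclic AMP response element, TGACG, which can overlap TGACNNNGC, occurred in 13 of the 25 (52.0%), against 23.0% of all genes. The full element, TGACGTCA, occurred in 0 of the 25, against 2.0% of all genes. Of the other letters searched, CCAAT occurred in 40.0% of the 25 (41.1% of all genes). AANNGAAA occurred in 36.0% (26.7%) and TTCNNNGAA in 4.0% (9.6%). A match of Nfe2l1 itself and of each of 6 subunit genes that rose in both genotypes is shown so that the cores and their surroundings can be compared. Each is read on the gene's own strand with the matched core in capitals, and some of these genes hold further matches.
Nfe2l1, chr11:96830119-96830167, minus strand: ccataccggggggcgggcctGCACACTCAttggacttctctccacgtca
Psma6, chr12:55398713-55398761, plus strand: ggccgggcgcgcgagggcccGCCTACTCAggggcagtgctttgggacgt
Psmb5, chr14:54618014-54618062, minus strand: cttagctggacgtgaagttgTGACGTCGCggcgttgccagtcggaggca
Psmb6, chr11:70525328-70525356, plus strand: cagaggcggactaaagagagTGACGGAGC
Psmc2, chr5:21786593-21786641, plus strand: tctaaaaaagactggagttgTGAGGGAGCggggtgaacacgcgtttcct
Psmc6, chr14:45329577-45329625, plus strand: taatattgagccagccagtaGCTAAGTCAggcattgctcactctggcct
Psmd12, chr11:107479278-107479309, plus strand: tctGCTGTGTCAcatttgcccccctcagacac

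In Psmb6 the core ended at the base before the start and began 9 bases upstream of it, in Psmb5 it began 47 bases upstream, and in Nfe2l1 179 bases upstream. In Psmb5 and Psmb6 the letters were TGACNNNGC on the gene's strand and included TGACG, while Nfe2l1, Psma6, Psmc6 and Psmd12 held the core on the other strand. Either form occurred in 3 of 7 assembly chaperone genes with a window (42.9%), against 30.8% of all genes. It occurred in 0 of the 5 genes Psmb8, Psmb9, Psmb10, Psme1 and Psme2. Of the assembly chaperones, only Psmg3 and Pomp were called higher. The relation between matches and calls was not tested. A match describes letters and is not a measured binding site.

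Among the 20S α subunits, which gate entry to the core, 7 of 7 tested rose in AdC3KO and 6 of 7 in WT, with medians of 0.60 and 0.47. Psma1 changed most. It had 263, 272, 306 and 267 CPM at 4 °C in AdC3KO, against 86.3, 96.0 and 89.3 CPM at 30 °C, and 226, 272, 263 and 303 CPM at 4 °C in WT, against 83.2, 101 and 93.2 CPM at 30 °C. The log2 fold changes of Psma1 were 1.61 (SE 0.11, adjusted p = 3.17e-09) in AdC3KO and 1.52 (SE 0.11, adjusted p = 6.1e-09) in WT. Psma5 followed at 1.124 in AdC3KO and 0.94 in WT. The other 5 ranged from 0.33 to 0.76 in AdC3KO and from 0.23 to 0.62 in WT, with Psma7 lowest in both; Psma7 was not called in WT (adjusted p = 0.0646), but it was without WT library 2 at 30 °C, and its AdC3KO call (adjusted p = 0.0119) was lost without AdC3KO library 1 at 30 °C. Psma2 shares its strand with the overlapping gene AW209491, so reads of the shared part could have gone to either or to neither.

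All 4 structural subunits of the β ring rose in both genotypes, with medians of 0.61 in AdC3KO and 0.50 in WT and with Psmb2 the furthest at 0.82 (SE 0.09, adjusted p = 8.86e-07) in AdC3KO and 0.72 (SE 0.09, adjusted p = 3.95e-06) in WT. Psmb2 had 105 to 118 CPM in AdC3KO mice and 97.9 to 113 CPM in WT mice at 4 °C, against 56.7 to 69.4 CPM in AdC3KO mice and 58.0 to 70.2 CPM in WT mice at 30 °C. Psmb4 was at 0.75 in AdC3KO and 0.70 in WT. The WT calls of Psmb1 (0.31) and Psmb3 (0.26) depended on single libraries. Leaving out WT library 1 or 3 at 30 °C, or WT library 1 or 2 at 4 °C, ended both; the Psmb3 call also ended without any other single library at 4 °C. The AdC3KO call of Psmb1 (0.33) was lost without AdC3KO library 1 at 30 °C. On library totals the WT values of Psmb1 and Psmb3 were −0.043 and −0.083.

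All 3 constitutive catalytic subunits rose in both genotypes, with medians of 0.74 in AdC3KO and 0.63 in WT. Psmb5, which carries the chymotrypsin-like activity, had 68.3, 67.6, 84.0 and 80.6 CPM at 4 °C in AdC3KO, against 33.5, 40.8 and 44.7 CPM at 30 °C. In WT it had 72.1, 74.7, 70.5 and 67.0 CPM at 4 °C, against 41.8, 50.7 and 38.8 CPM at 30 °C. Cold and warm libraries did not overlap, and the log2 fold changes were 0.92 (SE 0.12, adjusted p = 4.39e-06) in AdC3KO and 0.70 (SE 0.12, adjusted p = 7.68e-05) in WT. Psmb7, the trypsin-like subunit, had log2 fold changes of 0.74 in AdC3KO and 0.63 in WT, and Psmb6, the caspase-like one, 0.44 in AdC3KO and 0.39 in WT.

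All 17 subunits of the 19S cap were called higher in each genotype, with medians of 1.04 in AdC3KO and 0.94 in WT, against 0.67 and 0.54 for the 14 tested core subunits. The difference between cap and core was not tested. On library totals 16 of 17 cap subunits rose in AdC3KO and 14 of 17 in WT, against 7 of 14 core subunits in each genotype. Of all tested genes, 18.7% rose on that scale in AdC3KO and 19.4% in WT. Summed over its genes the cap had 2730 ± 79.4 CPM in AdC3KO libraries and 2608 ± 45.8 CPM in WT libraries at 4 °C (SD, n = 4 each), against 1296 ± 81.5 CPM in AdC3KO mice and 1317 ± 98.7 CPM in WT mice at 30 °C (SD, n = 3 each). The core summed to 1940 ± 70.3 CPM in AdC3KO mice and 1829 ± 48.1 CPM in WT mice at 4 °C, against 1169 ± 117 CPM in AdC3KO mice and 1193 ± 135 CPM in WT mice at 30 °C.

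Among the 6 base ATPases, which unfold substrates, Psmc4 changed most. It had 142, 133, 139 and 144 CPM at 4 °C in AdC3KO, against 41.6, 45.7 and 51.8 CPM at 30 °C, and 124, 137, 136 and 127 CPM at 4 °C in WT, against 45.9, 46.3 and 43.9 CPM at 30 °C. The log2 fold changes of Psmc4 were 1.59 (SE 0.08, adjusted p = 3.36e-10) in AdC3KO and 1.53 (SE 0.08, adjusted p = 5.63e-10) in WT. Psmc2 followed at 1.46 in AdC3KO and 1.26 in WT, and Psmc5, Psmc6 and Psmc1 lay between 0.85 and 1.13 in AdC3KO and between 0.81 and 0.98 in WT. Psmc3 changed least, at 0.70 in AdC3KO and 0.57 in WT. The gene of Psmc3 overlaps Slc39a13 on the other strand, and the counting is not stated to use strand.

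Of the 3 non-ATPase subunits of the base, Psmd4, a ubiquitin receptor, rose furthest. It had 261, 252, 291 and 264 CPM at 4 °C in AdC3KO, against 86.5, 98.9 and 100.1 CPM at 30 °C, and 279, 265, 254 and 256 CPM at 4 °C in WT, against 88.4, 98.3 and 87.5 CPM at 30 °C. Its log2 fold changes were 1.49 (SE 0.09, adjusted p = 9.74e-10) in AdC3KO and 1.53 (SE 0.09, adjusted p = 7.61e-10) in WT. Psmd2, a scaffold that binds ubiquitin-like domains, was at 1.04 in AdC3KO and 1.03 in WT, and its partner Psmd1 at 0.98 in AdC3KO and 0.87 in WT.

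The lid held the member with the largest rise in both genotypes. Psmd11, a scaffold subunit known to limit proteasome assembly in human stem cells, had 223, 222, 233 and 228 CPM at 4 °C in AdC3KO, against 64.8, 63.2 and 66.7 CPM at 30 °C. In WT it had 206, 211, 209 and 200.2 CPM at 4 °C, against 70.4, 72.5 and 63.2 CPM at 30 °C. The libraries of each group lay close together, and the log2 fold changes were 1.80 (SE 0.08, adjusted p = 4.24e-11) in AdC3KO and 1.59 (SE 0.07, adjusted p = 1.17e-10) in WT. Psmd6, Psmd12 and Psmd7 also rose, by 1.10 to 1.29 in AdC3KO and 0.93 to 1.198 in WT, and Psmd13, Psmd3 and Psmd8 by 0.61 to 0.88 in AdC3KO and 0.49 to 0.88 in WT. Psmd14, the enzyme that cuts ubiquitin chains from substrates, changed least in the lid, at 0.58 in AdC3KO and 0.46 in WT.

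Of the 8 assembly chaperones, which are absent from the finished particle, 2 rose and 3 fell in AdC3KO and 2 rose and 2 fell in WT, with medians of −0.14 and −0.18. These counts are near the shares of all genes called (31% higher and 32.1% lower in AdC3KO, 30.6% and 30.8% in WT), and the difference from core and cap was not tested. Psmg3, which helps to build the α ring, was scarce. It had 3.92, 3.88, 4.06 and 3.84 CPM at 4 °C in AdC3KO, against 1.86, 2.08 and 2.25 CPM at 30 °C, and 3.18, 3.41, 2.99 and 2.85 CPM at 4 °C in WT, against 2.07, 1.88 and 2.15 CPM at 30 °C. Its log2 fold change was 0.92 (SE 0.18, adjusted p = 0.000294) in AdC3KO and 0.61 (SE 0.18, adjusted p = 0.00783) in WT. Without the muscle-bearing libraries Psmg3 was called in neither (0.78, adjusted p = 0.0936 in AdC3KO and 0.60, adjusted p = 0.0854 in WT).

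Psmg1, another chaperone of the α ring, had 14.7, 14.9, 13.9 and 14.7 CPM at 4 °C in AdC3KO, against 17.4, 18.9 and 19.97 CPM at 30 °C. In WT it had 15.8, 14.7, 16.4 and 15.7 CPM at 4 °C, against 19.5, 20.1 and 18.5 CPM at 30 °C. Every cold library was below every warm one, with log2 fold changes of −0.37 (SE 0.09, adjusted p = 0.00237) in AdC3KO and −0.31 (SE 0.09, adjusted p = 0.00823) in WT. Without the muscle-bearing libraries the WT call of Psmg1 was lost (−0.32, adjusted p = 0.0614). Its partner Psmg2 fell in AdC3KO (−0.32, adjusted p = 0.0224) and had −0.25 in WT (adjusted p = 0.069). The AdC3KO call of Psmg2 was lost without AdC3KO library 2 at 30 °C or AdC3KO library 1 or 2 at 4 °C. Psmg4, the partner of Psmg3, was not called (−0.23 in AdC3KO and −0.31 in WT).

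Psmd5, Psmd9 and Psmd10 are chaperones of the ATPase base. Psmd5 fell, by 0.26 in AdC3KO (adjusted p = 0.0364) and by 0.29 in WT (adjusted p = 0.0213), calls that were lost under 11 and 5 of 24 alternatives. The AdC3KO call was lost without any 1 AdC3KO library at 30 °C, AdC3KO library 2, 3 or 4 at 4 °C or WT library 2 or 4 at 4 °C. The WT call was lost without WT library 2 or 3 at 30 °C or WT library 3 at 4 °C. Psmd9 and Psmd10 had log2 fold changes between −0.11 and −0.05 and were not called. Pomp, which completes the β ring and is then degraded as a first substrate, had 69.7, 64.2, 73.8 and 68.5 CPM at 4 °C in AdC3KO, against 44.1, 51.3 and 58.3 CPM at 30 °C. In WT it had 63.1, 65.8, 61.3 and 80.8 CPM at 4 °C, against 53.8, 57.0 and 45.3 CPM at 30 °C. Pomp rose in both (0.43, adjusted p = 0.00409 in AdC3KO and 0.38, adjusted p = 0.00936 in WT). The WT call of Pomp was lost without WT library 3 at 30 °C, and on library totals, with upper-quartile factors or without the muscle-bearing libraries Pomp was called in neither genotype.

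Activators replace or accompany the 19S cap. Psme3 (PA28γ), the nuclear activator, had 129, 131, 115 and 129 CPM at 4 °C in AdC3KO, against 64.8, 61.0 and 56.4 CPM at 30 °C. In WT it had 151, 141, 142 and 120.2 CPM at 4 °C, against 53.7, 60.9 and 61.1 CPM at 30 °C. It rose by 1.05 (SE 0.09, adjusted p = 6.51e-08) in AdC3KO and 1.24 (SE 0.09, adjusted p = 1.27e-08) in WT. Psme4 (PA200), a large activator linked to histone turnover, rose by 0.91 (SE 0.10, adjusted p = 8.13e-07) in AdC3KO and 0.87 (SE 0.10, adjusted p = 1.45e-06) in WT, to 145 to 182 CPM in AdC3KO and 148 to 174 CPM in WT. The rises of Psme3 and Psme4 passed the test under every alternative run.

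No interferon-inducible catalytic subunit passed the test in the main fit, which used all libraries, TMM factors and 4 group means. Psmb8 had 27.0, 8.31, 6.79 and 5.395 CPM at 4 °C in AdC3KO, against 12.4, 19.1 and 14.03 CPM at 30 °C, and 6.78, 9.96, 7.55 and 72.8 CPM at 4 °C in WT, against 19.9, 18.9 and 15.2 CPM at 30 °C. Psmb9 had 13.6, 3.53, 3.03 and 2.66 CPM at 4 °C in AdC3KO, against 16.4, 19.9 and 14.8 CPM at 30 °C, and 3.01, 2.31, 3.09 and 39.6 CPM at 4 °C in WT, against 21.5, 19.6 and 18.3 CPM at 30 °C. Psmb10 had 26.4, 16.4, 14.9 and 14.6 CPM at 4 °C in AdC3KO, against 29.1, 34.9 and 31.5 CPM at 30 °C, and 16.6, 15.1, 13.0 and 54.9 CPM at 4 °C in WT, against 32.5, 35.6 and 36.8 CPM at 30 °C. In each of the 3 genes, AdC3KO library 1 and WT library 4 were the highest at 4 °C, and the other 6 cold libraries lay below all 6 warm ones. The log2 fold changes were −0.34, −1.57 and −0.81 in AdC3KO and 0.44, −0.70 and −0.48 in WT for Psmb8, Psmb9 and Psmb10 (adjusted p from 0.129 to 0.746).

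**Figure D3:**
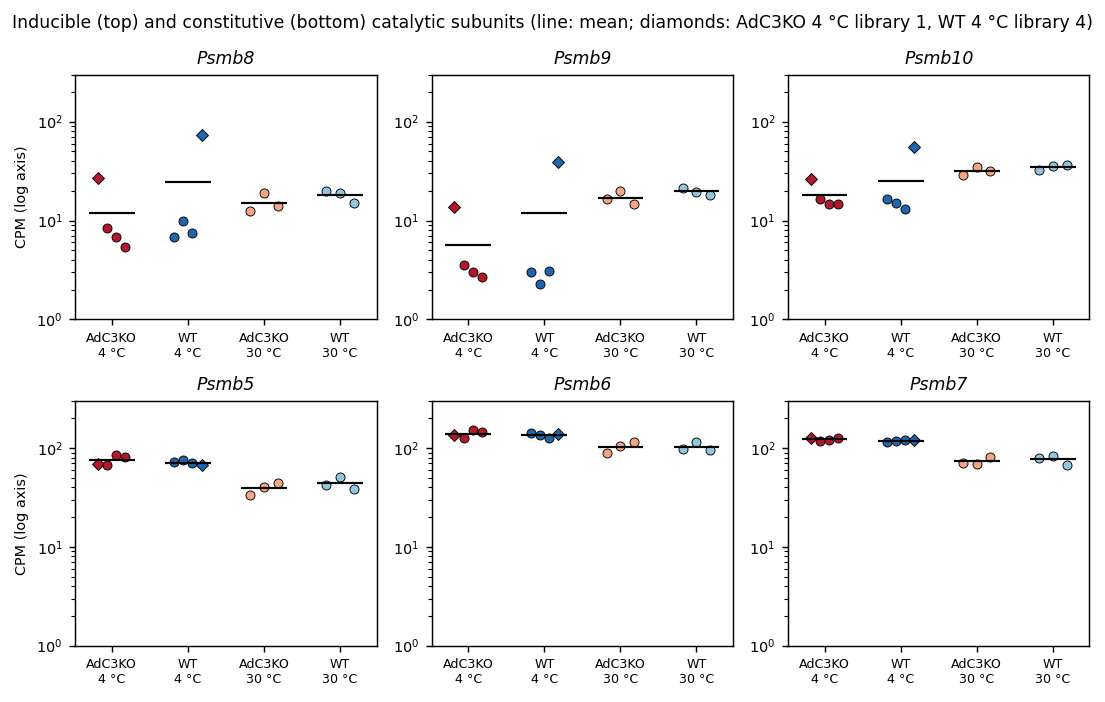
CPM (log axes) of the interferon-inducible catalytic subunits (top) and their constitutive counterparts (bottom) in each library; lines are means, and diamonds mark AdC3KO library 1 and WT library 4 at 4 °C. In the top row the diamonds lie above the other cold libraries, at 27.0 and 72.8 CPM for Psmb8, while in the bottom row they lie close to them.

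Those libraries were also the highest in interferon response genes, a list of 23 genes with Irf1 and Isg15 that shares none with the members. The list summed to 3317 CPM in AdC3KO library 1 and 6399 CPM in WT library 4, against 1284 to 1640 CPM in the other cold libraries and 1657 to 2331 CPM at 30 °C. Macrophage and leukocyte markers summed to 572 CPM in AdC3KO library 1 and 951 CPM in WT library 4, against 251 to 367 CPM in the other cold libraries and 226 to 320 CPM at 30 °C. Their part in the result was not tested. Without these 2 libraries all 3 inducible subunits were called lower in the cold. The 2 were also the highest cold libraries for these genes, so leaving them out by itself lowers the cold values and narrows their spread. The p-values of that fit describe the remaining libraries only. Psmb9 was then at −2.45 (adjusted p = 8.38e-09) in AdC3KO and −2.81 (adjusted p = 2.75e-09) in WT. Psmb10 was at −1.03 (adjusted p = 1.44e-06) in AdC3KO and −1.22 (adjusted p = 2.64e-07) in WT, and Psmb8 at −1.13 (adjusted p = 0.000161) in AdC3KO and −1.14 (adjusted p = 0.000144) in WT. In WT the direction of Psmb8 thus rests on library 4. Leaving out that library alone gave −1.14 for Psmb8 in WT (adjusted p = 0.0853) and calls of Psmb9 (adjusted p = 0.00124) and Psmb10 (adjusted p = 4.01e-05) in WT. The same omission, through the shared estimate of spread, gave calls of Psmb9 (adjusted p = 0.0143) and Psmb10 (adjusted p = 0.000798) in AdC3KO. With all libraries kept, Psmb10 was called lower in AdC3KO on library totals (−1.19, adjusted p = 0.041) and, at a similar log2 fold change to that under TMM, in a fit of the compared groups only. Psmb9 overlaps Tap1 on the other strand over 212 bases.

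The ratio of inducible to constitutive subunits was lower in most cold libraries. Psmb5, Psmb6 and Psmb7 themselves rose in the cold, which by itself lowers such ratios. Per 100 counts of Psmb6 there were 9.98, 2.78, 2.00 and 1.85 counts of Psmb9 at 4 °C in AdC3KO, against 18.4, 19.1 and 12.9 at 30 °C. In WT there were 2.11, 1.69, 2.47 and 28.7 at 4 °C, against 21.9, 17.0 and 19.01 at 30 °C. This ratio does not depend on the scaling, and 6 of the 8 cold libraries were at or below 2.78. In the same 6 libraries Psmb8 had 6.69 to 13.3 counts per 100 of Psmb5, against 31.4 to 47.6 at 30 °C. Psmb10 had 10.7 to 14.5 per 100 of Psmb7, against 38.98 to 54.6 at 30 °C. At 4 °C AdC3KO library 1 had 39.5 for Psmb8 and 21.1 for Psmb10, and WT library 4 had 108.6 and 45.7.

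**Figure D4:**
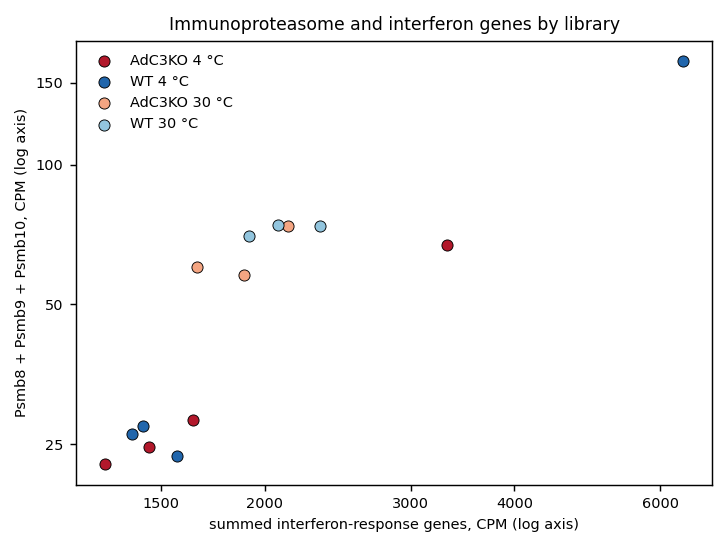
Summed CPM of Psmb8, Psmb9 and Psmb10 (vertical, log axis) against the summed CPM of 23 interferon response genes (horizontal, log axis), 1 point a library. AdC3KO library 1 and WT library 4 at 4 °C stand to the right of the rest at 67.0 and 167 CPM, and the other 6 cold libraries lie at 22.6 to 28.2 CPM, below the 57.9 to 74.2 CPM of the warm ones.

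Psme1 and Psme2, which form the interferon-inducible activator PA28αβ, were also highest at 4 °C in WT library 4 and, less far from the rest, in AdC3KO library 1. Psme1 had 65.6, 50.9, 59.0 and 51.6 CPM at 4 °C in AdC3KO, against 66.4, 78.7 and 87.6 CPM at 30 °C, and 55.8, 47.3, 49.0 and 115 CPM at 4 °C in WT, against 73.4, 87.0 and 80.9 CPM at 30 °C. Psme2 had 71.7, 49.9, 63.4 and 64.7 CPM at 4 °C in AdC3KO, against 73.4, 84.5 and 98.1 CPM at 30 °C, and 56.6, 52.1, 61.0 and 111 CPM at 4 °C in WT, against 93.6, 96.9 and 84.8 CPM at 30 °C. Neither was called in the main fit, and without the 2 interferon-high libraries both were lower in the cold. Here too the libraries left out were the highest cold ones, which by itself lowers the cold values. Psme1 was then at −0.50 (adjusted p = 0.00131) in AdC3KO and −0.66 (adjusted p = 0.00014) in WT, and Psme2 at −0.50 (adjusted p = 0.00311) in AdC3KO and −0.69 (adjusted p = 0.000248) in WT. Some other settings also gave calls with all libraries. Psme2 was called lower in both genotypes with upper-quartile factors (adjusted p = 0.0144 in AdC3KO and 0.0226 in WT) and on library totals (adjusted p = 0.00746 in AdC3KO and 0.017 in WT). Psme1 was called lower in AdC3KO under both (adjusted p = 0.034 and 0.0166). In a fit of the compared groups only both were called lower in AdC3KO, and Psme2 also with the filter at 5 CPM. The transcripts of Psme2 and Psme2b are 99.4% identical over 794 bases, so the split of reads between them is uncertain. Psme2b had 3.03 to 4.03 CPM in AdC3KO mice and 2.53 to 7.54 CPM in WT mice at 4 °C, against 3.83 to 5.10 CPM in AdC3KO mice and 4.47 to 4.87 CPM in WT mice at 30 °C.

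Loss of CLSTN3B in adipocytes changed no member detectably. At 4 °C 0 of 51 members were called between AdC3KO and WT, where 0.0439% of all genes were called higher and 0.00627% lower, and 1 member had an unadjusted p below 0.05 in edgeR and 3 in DESeq2, which also called none. At 30 °C 0 of 51 were called, where 0.0376% of all genes were higher and 0.00627% lower, and none had an unadjusted p below 0.05 in edgeR or in DESeq2. The cold response itself differed between genotypes in 0 of 51 members, where 0% of all genes passed in either direction, with 0 at an unadjusted p below 0.05 in edgeR and 1 in DESeq2. With so few calls over all genes, these zeros are near the background.

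**Figure D5:**
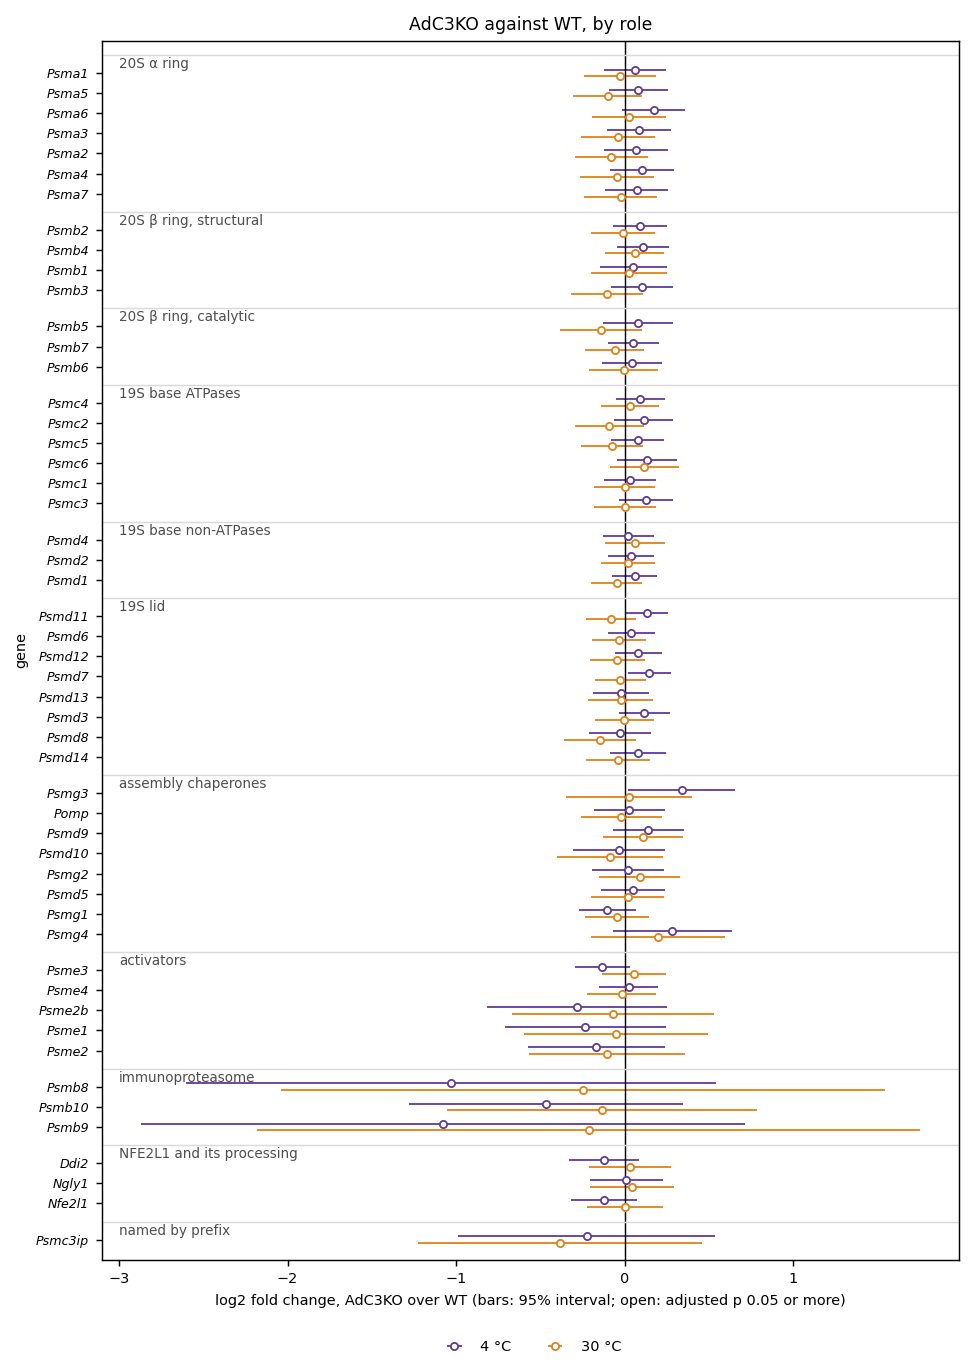
Log2 fold change of each tested member in AdC3KO over WT (horizontal axis) at 4 °C (violet) and at 30 °C (orange), grouped by role, with 95% intervals; no point passed an adjusted p of 0.05. The subunits of core and cap lie between −0.15 and 0.17, and the widest intervals belong to Psmb8 and Psmb9.

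The 95% intervals are built from the SE alone and are narrower than the test itself, so a few exclude 0 at an unadjusted p above 0.05. For the 31 tested core and cap subunits the estimates ran from −0.03 to 0.17 at 4 °C and from −0.15 to 0.116 at 30 °C, with 29 of 31 above 0 at 4 °C and 7 of 31 above 0 at 30 °C, where 48.5% and 53.2% of all genes were above 0. The members come from the same libraries, so neither count is one of independent values. Psmb8, Psmb9 and Psmb10 were at −1.03, −1.08 and −0.47 at 4 °C with all libraries and at 0.56, 1.04 and 0.28 without WT library 4, and were called in neither fit. Nfe2l1 was at −0.13 at 4 °C and 0.00 at 30 °C, Ddi2 at −0.13 and 0.03, and Ngly1 at 0.01 and 0.04. The members with the smallest unadjusted p at 4 °C were Psmd7, a lid scaffold beside Psmd14, Psmg3 and Psmd11. Psmd7 had 114, 109, 111 and 114 CPM in AdC3KO, against 95.4, 108, 103 and 98.2 CPM in WT, a log2 fold change of 0.15 (95% interval 0.02 to 0.28, unadjusted p = 0.0438, adjusted p = 0.963). The difference of Psmg3 was 0.34 (95% interval 0.02 to 0.65, unadjusted p = 0.0556) and that of Psmd11 0.13 (95% interval 0.00 to 0.26, unadjusted p = 0.0648), both with an adjusted p of 0.963. Psmd7, Psmg3, Psmd11 and Psmb3 were the 4 members whose AdC3KO libraries at 4 °C all lay above the WT ones, and no member lay wholly below. None of these 4 was called. The share of all genes ordered in this way was not counted, so the count cannot be set against a background.

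At 30 °C the smallest unadjusted p belonged to Psmd8, a lid subunit (−0.15, 95% interval −0.36 to 0.06), Psmb5 (−0.14, −0.39 to 0.10) and Psmc6 (0.116, −0.09 to 0.32), each with an adjusted p of 1. For the interaction they were Psmd11 (0.21, 95% interval 0.02 to 0.41), Psmd7 (0.17, −0.03 to 0.37) and Psmc2 (0.20, −0.07 to 0.47), each with an adjusted p of 1. Core and cap subunits had a median interaction of 0.12, with 30 of 31 above 0, against −0.02 and 45.8% above 0 over all genes; these values share libraries too. Without the libraries with muscle transcripts the median was 0.05. Leaving out AdC3KO library 3 at 4 °C alone, the library with the highest muscle sum, gave a median of 0.135. It was 0.066 without AdC3KO library 1 at 30 °C alone and 0.04 without WT library 2 at 30 °C alone. The part of muscle in these values was not tested.

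Genes that work beside the proteasome were examined as lists, chosen with earlier results of these data known; counts are under TMM unless said otherwise. Ubiquitin and its activating and conjugating enzymes rose in 12 of 15 and fell in 2 in each genotype, with medians of 0.75 in AdC3KO and 0.80 in WT. Ubb, a polyubiquitin gene, was at 1.47 in AdC3KO and 1.59 in WT. Ube2d2a and Ube2k, which conjugate ubiquitin, were at 0.96 and 0.79 in AdC3KO and 0.90 and 0.86 in WT. Proteasome-associated proteins rose in 11 of 17 tested and fell in 2 in each genotype. Among them were the cap-bound thioredoxin Txnl1 (1.51 in AdC3KO and 1.37 in WT), the shuttle factors Rad23b (1.37 and 1.29) and Ubqln1 (1.18 and 1.21), and the stress-induced Zfand2a (1.42 and 1.124).

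Genes of endoplasmic-reticulum-associated degradation, the route by which NFE2L1 leaves the membrane, were divided. In AdC3KO 11 of 19 rose and 3 fell, and in WT 11 rose and 2 fell. The p97 cofactors Nploc4 (1.77 in AdC3KO and 1.72 in WT) and Ubxn4 (1.66 and 1.58) rose, as did Selenos at 0.82 and 0.78. Edem2, which acts on glycoproteins, fell (−1.34 in AdC3KO and −1.15 in WT). Of the factors related to NFE2L1 and their partners, 5 of 12 tested rose in each genotype, while 4 fell in AdC3KO and 3 in WT, where 31% of all genes rose and 32.1% fell in AdC3KO and 30.6% and 30.8% did in WT. The small MAF gene Maff was at 4.46 in AdC3KO and 3.79 in WT and Mafk at 1.21 and 1.08. Nfe2l3, a close relative of Nfe2l1, was at −2.65 and −3.09, and Btrc, an F-box protein of NFE2L1 turnover, at −1.45 and −1.29.

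Cytosolic heat shock genes, the other arm of the response to damaged proteins, rose in 15 of 15 in each genotype, with medians of 2.14 in AdC3KO and 2.29 in WT. Hsp90aa1 was at 3.60 in AdC3KO and 3.45 in WT and Hsph1 at 3.52 and 3.46. Hspa1a (5.48 and 5.07) and Hspa1b (5.33 and 5.05) are near-identical genes, so the split between them is uncertain. Interferon response genes rose in 0 of 23 in each genotype, while 3 fell in AdC3KO and 2 in WT, with medians of 0.27 and 0.49 and 14 and 17 of the 23 above 0. Without the 2 interferon-high libraries, 32.1% of all tested genes rose and 32.2% fell in AdC3KO, and 30.6% and 31.7% did in WT. Of the 23 interferon response genes, 1 then rose and 10 fell in AdC3KO. In WT 0 rose and 11 fell, and the medians were −0.44 in AdC3KO and −0.67 in WT. Those libraries stood out by these same genes, so the recount is no separate test of a fall. With all libraries, Irf1, which drives immunoproteasome genes, fell by 1.66 in AdC3KO and by 1.31 in WT, and the peptide transporter Tap2 fell by 1.66 and 1.14. On library totals, an alternative added after seeing the data, 18.7% of all genes rose and 46.4% fell in AdC3KO, and 19.4% and 44% in WT. On that scale heat shock genes rose in 14 of 15 and ubiquitin genes in 11 of 15 in each genotype, proteasome-associated genes in 8 of 17. Genes of endoplasmic-reticulum-associated degradation then rose in 7 and fell in 7 of 19, and the factors related to NFE2L1 rose in 4 and fell in 6 of 12, in each genotype.

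Per transcript length, the members spanned a wide range. On a scale of transcripts per 1e6 (TPM-like) computed from exonic length, Psma6 was the highest at 391 ± 37.9 in AdC3KO and 371 ± 17.8 in WT at 4 °C (SD, n = 4 each) and 291 ± 13.4 in AdC3KO and 291 ± 7.24 in WT at 30 °C (SD, n = 3 each). Nfe2l1 came next at 226 ± 40.9 in AdC3KO and 260 ± 19.7 in WT at 4 °C and 217 ± 24.6 in AdC3KO and 221 ± 23.4 in WT at 30 °C. Among core and cap subunits the lowest at 4 °C was Psmd1 (44.2 in AdC3KO and 45.1 in WT), and the lowest at 30 °C was Psmd11 in AdC3KO (27.3) and in WT (29.4), which stood at 75.7 in AdC3KO and 73.8 in WT at 4 °C. Exonic length joins all annotated transcripts, so levels of genes with long rare exons are understated, and this scale carries no TMM factor. Psmc3ip, a recombination cofactor that only shares the prefix, had 0.29 to 1.23 CPM in AdC3KO mice and 0.88 to 1.42 CPM in WT mice at 4 °C and 0.78 to 1.82 CPM at 30 °C, and was not called.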

How the data were processed

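Brown adipose tissue of 4 groups was profiled in 14 libraries (3 AdC3KO and 3 WT at 30 °C, 4 AdC3KO and 4 WT at 4 °C). Per the labels, the authors trimmed reads with Trimmomatic, aligned them to GRCm38/mm10 with STAR and deposited whole-number counts per gene made by HTSeq; the annotation release is not given in the sources used here. Rows that name no gene (reads without a feature, 5.95 to 8.19%, and ambiguous reads, 5.53 to 6.03%) were left out. Members and lists were chosen with earlier results of these data known. Locations, biotypes and exonic lengths came from GENCODE vM21 and promoters from RefSeq.

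Counts were tested with edgeR 4.0.16 (R 4.3.3; quasi-likelihood, TMM, filterByExpr with a minimum count of 10) in 1 fit of all libraries with 4 group means, with Benjamini-Hochberg adjustment over 15949 genes at 0.05. SE is the log2 fold change divided by the root of F. CPM used TMM library sizes. The fit was tested on simulated data. Chi-square per degree of freedom between replicates of a group was 16.9 to 83.5, where sampling noise alone gives about 1, so none was treated as a repeated deposit. Alternatives were RLE and upper-quartile factors, library totals alone (chosen after seeing the data), DESeq2 1.42.0, no filter, a filter at 5 CPM in 3 libraries, the compared groups only, a replicate block, libraries left out singly, and fits without the muscle-bearing or interferon-high libraries; the neighbouring lists and markers were recounted without the interferon-high libraries and on library totals after seeing the data. Named genes were Nfe2l1, Ddi2, Ngly1, Pomp, the inducible subunits and activators, the called member with the largest rise and the largest fall in WT cold in each other role, the highest and lowest by length, the 3 smallest p of each genotype comparison, and up to 4 called genes per list; further members were named after their values were seen.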

Additional observations from a re-analysis of the deposited data

Results flagged for a closer look

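In groups of 4 libraries, a value was set aside for a closer look when its gap to the nearest other library was large against the group's range (Dixon's test at 95%). Of 102 such tests on the members at 4 °C, 11 picked a library, where chance gives about 5.1. In AdC3KO library 1 these were Psmb8 (27.0 CPM), Psmb9 (13.6 CPM) and Psmb10 (26.4 CPM), each the highest of its group. In WT library 4 they were Psmb8 (72.8 CPM), Psmb9 (39.6 CPM), Psmb10 (54.9 CPM), Psme1 (115 CPM) and Psme2 (111 CPM), again each the highest. The other 3 were low values in AdC3KO, with Psma2 at 112 CPM in library 2 and Psmg1 at 13.9 CPM and Psme3 at 115 CPM in library 3. Library 3 had the highest skeletal muscle sum (468 CPM); the part of muscle in these values was not tested.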

How the results depend on the processing

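No member was called between genotypes or for the interaction under any alternative. Members that rose in the cold numbered 27 to 38 in AdC3KO and 24 to 37 in WT over the alternatives other than leaving out single libraries, and 36 to 38 in AdC3KO and 34 to 38 in WT without single libraries. The 24 in WT came from library totals alone, an alternative chosen after seeing the data. Of all tested genes, 14.1% to 35.8% rose in AdC3KO and 14% to 35.9% in WT over the alternatives other than single libraries. Without single libraries these shares were 27.6% to 32.6% and 27.5% to 30.2%. Those that fell (3 in AdC3KO and 2 in WT) numbered 7 and 6 with upper-quartile factors, 6 and 1 with the compared groups only, 1 and 0 without muscle-bearing libraries, 7 and 8 without interferon-high libraries, 10 and 7 on library totals, and 1 to 6 and 1 to 7 without single libraries. Among values called in either fit, the sign turned for Psmb8 in WT without interferon-high libraries (−1.14) and, on library totals, Psma7 (−0.065), Psmb1 (−0.056) and Nfe2l1 (−0.005) in AdC3KO and Psmb1 (−0.043) and Psmb3 (−0.083) in WT. Uncalled values also changed sign, among them Psma7 in WT on library totals (−0.118) and Psmb8 in WT without WT library 4 (−1.14); the genotype and interaction values of Psmb8, Psmb9 and Psmb10 also turned without that library. On library totals the all-gene median shifted, which the scaling itself produces; for the others the cause was not tested. Upper-quartile factors moved the all-gene median to −0.29 in AdC3KO and −0.27 in WT. Same-numbered libraries did not deviate together over all genes (correlations −0.34 to 0.05). This cannot exclude a pairing with small effects, and the labels do not say what the numbers mark. With a replicate block 38 members rose and 3 fell in AdC3KO, where 29.9% of all tested genes rose and 31.5% fell. In WT 35 members rose and 3 fell with the block, where 29.4% of all tested genes rose and 29.8% fell. Psme2 was then called lower in both (adjusted p = 0.014 and 0.0162). At this depth Psma8 and Psmb11 could not be tested.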
